A study of Mus musculus with 8 samples.

Results

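The 40 genes described here are 38 genes of the 4 mouse Hox clusters and 2 further Polycomb targets, Vax2 and Hand2. Vax2, Hand2 and several of the Hox genes were also PCR targets of the study. The 40 were chosen by gene symbol, with earlier results of these data known. All 40 were among the 16590 genes on the array, with 52 probes. RNA of mouse embryonic fibroblasts (MEFs) of the genotype Trp53-/- Dnmt1+/+ was compared after 72 h in 5-aza-dC (5-aza-2'-deoxycytidine) or in its vehicle, DMSO (control). All cells, the controls included, lacked Trp53 and carried intact Dnmt1, their background strain is given as unknown, and the sources used here give no embryo age. There were 2 biological replicates per group, each run on 2 arrays as technical repeats. Nothing in the labels says whether the replicates were separate cultures, so p-values measure only the spread between these samples. The labels give a dose of 1 µM, the study's methods give a lower one, and which of them applies to these arrays is not settled.

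Hox genes encode homeodomain transcription factors that give cells their position along the body axis. They lie in 4 clusters, HoxA to HoxD, in which the order of the genes along the chromosome matches the order of the body regions they pattern, and genes at the same place in different clusters form a paralogue group. In cells where a Hox gene is off, its locus is usually covered by histone H3 trimethylated at lysine 27 (H3K27me3), the mark of Polycomb repressive complex 2 (PRC2), and cultured fibroblasts keep a set of active Hox genes that reflects where in the body they came from. 5-aza-dC is built into DNA, traps DNA methyltransferases and lowers the methylation of cytosines that precede guanine (CpG). The comparison asked how Hox RNA levels behaved when DNA methylation was lowered by a drug.

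Since the drug acts at CpG, the promoter windows of 3 Hox genes that could be tested are shown, 1 from each of the clusters HoxA, HoxB and HoxC. Each runs 5′ to 3′ on the gene's own strand from 250 bases before to 50 bases after the start of the gene, with every CG in capitals. The sequences are from RefSeq on the build GRCm38.p6, at chr6:52260831-52261130 on the minus strand for Hoxa13, chr11:96318017-96318316 on the plus strand for Hoxb4 and chr15:103034145-103034444 on the plus strand for Hoxc4.
Hoxa13: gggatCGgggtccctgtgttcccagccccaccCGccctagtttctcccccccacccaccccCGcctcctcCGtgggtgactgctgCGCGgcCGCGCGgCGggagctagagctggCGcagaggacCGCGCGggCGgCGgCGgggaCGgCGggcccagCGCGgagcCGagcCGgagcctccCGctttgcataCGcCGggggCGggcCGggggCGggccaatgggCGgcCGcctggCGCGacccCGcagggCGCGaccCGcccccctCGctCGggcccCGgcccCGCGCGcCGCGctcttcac
Hoxb4: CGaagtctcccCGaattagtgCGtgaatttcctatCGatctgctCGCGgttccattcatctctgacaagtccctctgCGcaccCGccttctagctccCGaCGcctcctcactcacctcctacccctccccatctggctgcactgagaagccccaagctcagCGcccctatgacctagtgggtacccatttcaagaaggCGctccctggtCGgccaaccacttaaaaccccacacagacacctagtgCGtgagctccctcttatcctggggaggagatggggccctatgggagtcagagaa
Hoxc4: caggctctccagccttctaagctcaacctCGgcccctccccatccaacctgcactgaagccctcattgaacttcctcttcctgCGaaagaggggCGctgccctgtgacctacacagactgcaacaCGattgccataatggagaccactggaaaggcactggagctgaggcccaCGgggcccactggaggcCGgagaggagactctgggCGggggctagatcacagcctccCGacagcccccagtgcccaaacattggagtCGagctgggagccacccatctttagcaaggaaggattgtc
The Hoxa13 window held 45 CG, a count reached by 1.93% of the 32851 mouse promoter windows of the same length. The Hoxb4 window held 14, reached by 36.3%, and the Hoxc4 window 9, reached by 45.8%. RefSeq windows were matched for 23 of the 40 genes (25 windows). These held from 4 to 45 CG with a median of 15, against a median of 7 over all windows. Of the matched windows 84% reached that median of 7, as did 52.1% of all windows. HoxA and HoxD gave 10 windows each, HoxB 3 and HoxC 1, while Hoxb5, Hoxb9, Hoxc6 and Vax2 had none. CG is its own reverse complement, so 1 count serves both strands, and a count of letters says nothing about which of these sites were methylated.

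Most Hox genes were at background on the array. Each probe has a mean bead signal, which is a linear intensity, and a detection p-value, which says what share of the negative controls outshone it. A probe was taken as detected on an array where its detection p was under 0.05. Of the 40 genes, 25 had no detected probe on any of the 8 arrays. In the control 12 genes were detected on at least 1 array, and in 5-aza-dC 10 were. With a stricter detection p of 0.01 these numbers fell to 6 and 5. Signals of all 52 probes lay between 35.3 and 107, while the median signal of all probes on an array was 56.2 to 63.9.

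Detected genes were most frequent in HoxB, which had 6 of its 10 genes detected on some control array and 4 on some 5-aza-dC array. HoxC had 3 of 9 in each group, namely Hoxc4, Hoxc6 and Hoxc10 in the control and Hoxc4, Hoxc10 and Hoxc13 in 5-aza-dC. HoxA had Hoxa5 and Hoxa9 on 1 control array each and Hoxa13 on 2 arrays of 5-aza-dC. HoxD had none of 9 in the control, and in 5-aza-dC only Hoxd11, on 1 array. By position, the 15 central genes (paralogue groups 4 to 8) had 6 detected in the control and 3 in 5-aza-dC, the 16 posterior genes (groups 9 to 13) had 3 and 5, and the 7 anterior genes (groups 1 to 3) had 2 and 1. These counts carry no test. After background correction and normalisation, the dimmest detected log2 level was 4.87 to 4.88 on the control arrays and 4.73 to 4.81 on the 5-aza-dC arrays. A dim probe at the same level in both groups could thus be detected in 5-aza-dC only.

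**Figure D1:**
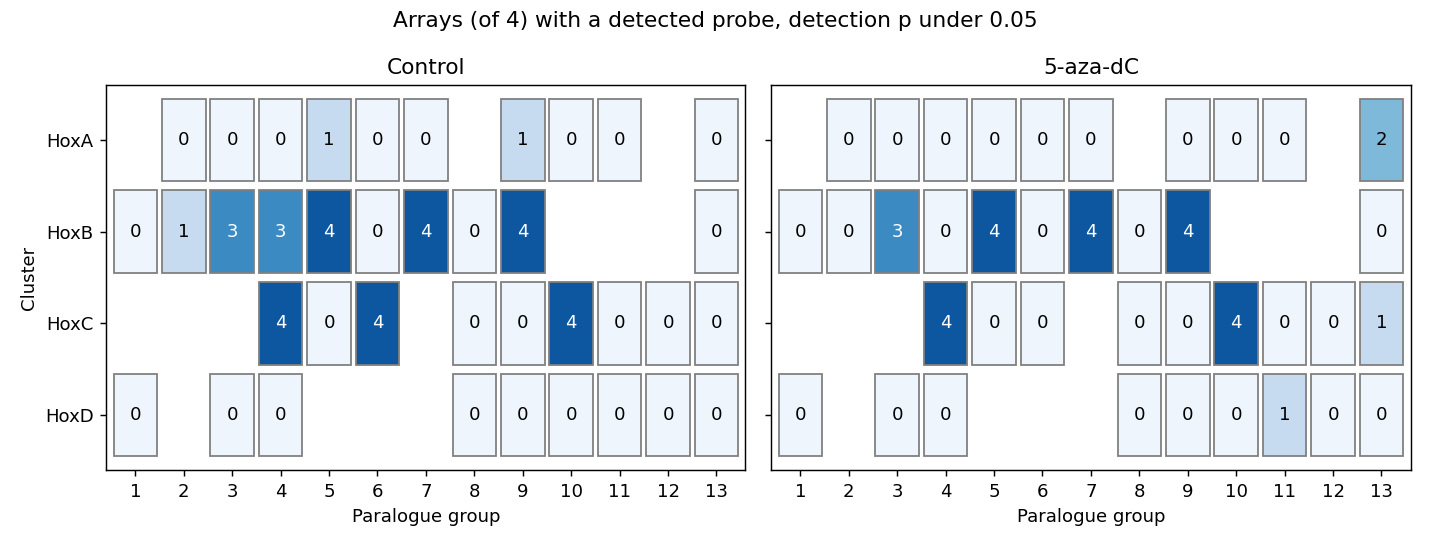
Number of the 4 arrays of each group on which any probe of a Hox gene was detected (detection p under 0.05), by cluster (rows) and paralogue group (columns). Cells left blank have no gene listed, the 9 HoxD genes were at 0 in the control, and Hoxc6 and Hoxb4 went to 0 arrays in 5-aza-dC.

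For the test, probes detected on at least 2 of the 8 arrays were kept, which left 10 of the 40 genes (25.0%), against 9502 of 16590 genes on the array (57.3%). Of these 10, Vax2 was higher in 5-aza-dC and Hoxb4, Hoxb5, Hoxb9 and Hoxc6 were lower, with limma's adjusted p under 0.05. The other 5, Hoxa13, Hoxb3, Hoxb7, Hoxc4 and Hoxc10, did not pass. Over all tested genes, 26.3% were called higher and 25.7% lower, so that 5 calls among 10 genes are close to the share of calls over the array. The median log2 fold change was -0.19 for the 10 genes, -0.27 for the 9 Hox genes among them and -0.02 for all genes tested. Hoxb4, Hoxc6, Hoxa13 and Vax2 passed the filter wholly or mainly through the group where they were brighter, so these counts describe the genes that passed and not all 40.

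Hoxc6, a trunk patterning gene of the centre of HoxC, had the widest difference among the tested genes. Its signal was 93.1, 84.6, 80.3 and 80.5 on the control arrays and 49.0, 54.2, 52.9 and 58.9 on the 5-aza-dC arrays, in each group 2 arrays of replicate 1 and then 2 of replicate 2. Every control array was above every 5-aza-dC array, and detection went from 4 of 4 arrays in the control to none of 4 after treatment. Background-corrected, quantile-normalised log2 levels were 5.80 and 5.70 in the control replicates and 4.57 and 4.60 in the 5-aza-dC replicates. The measured log2 fold change was -1.17 ± 0.09 (SE, n = 2 per group, limma adjusted p = 0.000327). Since the probe was not detected after treatment, the difference is given as a bound, at least 1.96-fold lower in 5-aza-dC, computed with the dimmest detected level of each treated array in place of the probe's own level. This and the other bounds hold only on the scale of the main background correction (neqc with an offset of 16). The log2 fold change of Hoxc6 was -0.60 with an offset of 50, -0.67 without background correction and -0.65 on the deposited normalised values, all smaller than that bound, with the call kept.

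The other tested genes of HoxC, Hoxc4 and Hoxc10, were not called. Hoxc4, at the anterior end of the cluster, had log2 levels of 5.23 and 5.34 in the control and 5.08 and 5.31 in 5-aza-dC, groups that overlap. Its log2 fold change was -0.09 ± 0.12, with a 95% interval from -0.38 to 0.19 (adjusted p = 0.537 in limma). Hoxc10, which acts in lumbar spinal cord and hindlimb and was one of the PCR genes, was at 5.37 and 5.15 in the control and 5.10 and 5.27 in 5-aza-dC, again overlapping. Its log2 fold change was -0.07 ± 0.12 (95% interval from -0.37 to 0.23, adjusted p = 0.655 in limma), and leaving out control replicate 1 or 5-aza-dC replicate 1 turned its sign. Both genes were detected on all 8 arrays by the probe used. The other probe of Hoxc10 was detected on no array, with signals from 41.5 to 50.5. Hoxc5 and Hoxc8, the genes on either side of Hoxc6, were detected on none, so nothing follows about their change.

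In HoxB, 5 genes could be tested and 3 of them were lower, where 25.7% of all tested genes were lower. Of these 3, Hoxb4 passed the filter only through the control arrays, and no test was made over the cluster. Hoxb9, a patterning gene of the thoracic skeleton, had signals of 107, 104, 94.4 and 102 on the control arrays and 71.8, 73.5, 68.9 and 77.8 on the 5-aza-dC arrays, with no overlap and with detection on all 8. Its log2 levels were 6.15 and 6.13 against 5.46 and 5.32, a log2 fold change of -0.75 ± 0.10 (1.68-fold lower, limma adjusted p = 0.00193). In the same 3 settings as for Hoxc6 it was -0.46, -0.48 and -0.45. Hoxb5, a central gene that acts in the position of the forelimb, was detected on all 8 arrays, with log2 levels of 5.41 and 5.63 in the control and 5.00 and 5.15 in 5-aza-dC. The replicate levels did not overlap, and it fell by 0.45 ± 0.12 on the log2 scale (adjusted p = 0.0217 in limma). Without control replicate 2 the adjusted p was 0.131, and in the 3 other background settings the log2 fold change was -0.24, -0.25 and -0.26.

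Hoxb4, known for its use to expand blood stem cells, was dim in both groups. Its signals were 63.6, 61.1, 57.3 and 56.6 in the control, detected on 3 of 4 arrays, and 46.3, 52.1, 55.3 and 56.3 in 5-aza-dC, detected on none. The lowest control array exceeded the highest treated array by less than 1 signal unit. Its log2 levels of 4.95 and 4.84 in the control and 4.48 and 4.60 in 5-aza-dC gave a measured log2 fold change of -0.36 ± 0.10 (adjusted p = 0.0252 in limma), and the bound is at least 1.08-fold lower. It was -0.16, -0.22 and -0.23 in the 3 other background settings. The call did not survive leaving out control replicate 1 (adjusted p = 0.135) or fitting the 8 arrays one by one (adjusted p = 0.0570).

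Hoxb7, the next detected gene of the cluster, had log2 levels of 5.66 and 5.71 in the control and 5.36 and 5.47 in 5-aza-dC. Its replicates did not overlap, but the log2 fold change of -0.27 ± 0.10 did not pass (adjusted p = 0.0619 in limma). Hoxb3, a gene of hindbrain patterning, had levels of 5.06 and 5.04 in the control, while the 5-aza-dC replicates lay at 4.76 and 5.12, on either side of them. Its log2 fold change was -0.11 ± 0.14 (95% interval from -0.44 to 0.23, limma adjusted p = 0.553), and its sign turned without 5-aza-dC replicate 1. The other probes of Hoxb3 were detected on no array. Hoxb2 was detected on 1 control array only, and Hoxb1, Hoxb6, Hoxb8 and Hoxb13 on no array.

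Hoxa13, which patterns digits and the genital tubercle and whose CG-rich promoter window is printed above, was the only testable gene of HoxA. The probe used had no detection in the control and passed on 2 of 4 treated arrays, where its signals were 59.9 and 65.9. Its brightest control signal, 60.1, did not count as detected. Log2 levels were 4.70 and 4.79 in the control and 4.76 and 4.83 in 5-aza-dC, which overlap, and the log2 fold change was 0.05 ± 0.09 (95% interval from -0.18 to 0.27, limma adjusted p = 0.706). Its 2 other probes were detected on no array.

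Vax2, a homeodomain factor of the ventral eye that lies outside the Hox clusters, was the only tested gene of the 10 that was higher. Its signals were 51.7, 57.9, 53.5 and 63.8 in the control, detected on 1 of 4 arrays, and 69.4, 73.8, 80.3 and 74.6 in 5-aza-dC, detected on all 4. Every treated array was above every control array. Log2 levels were 4.63 and 4.90 against 5.43 and 5.47, a log2 fold change of 0.68 ± 0.12 (1.60-fold, limma adjusted p = 0.00512). With an offset of 50, without background correction and on the deposited values it was 0.34, 0.38 and 0.34. Hand2, a basic helix-loop-helix factor of limb and heart, was detected on no array, with signals from 39.7 to 45.6 in the control and from 41.0 to 45.8 in 5-aza-dC.

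**Figure D2:**
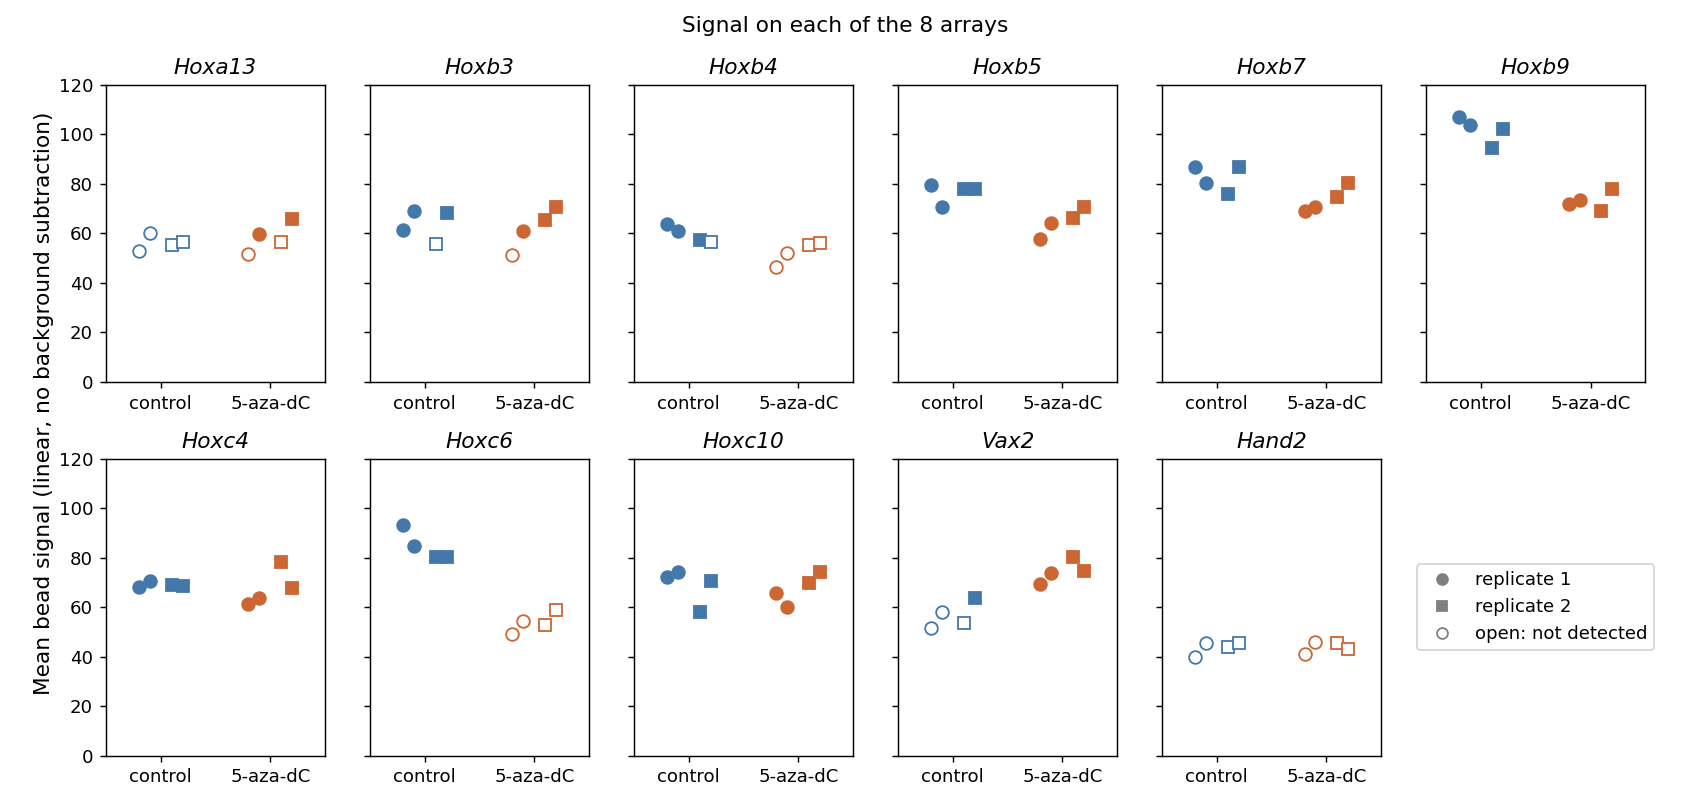
Mean bead signal (linear, no background subtraction) on each of the 8 arrays for the probe used of the 10 tested genes and for Hand2, by group, with circles for replicate 1, squares for replicate 2 and open symbols where the probe was not detected. Hoxc6 and Hoxb9 have every control array above every 5-aza-dC array, Vax2 the reverse, and Hand2 stays between 39.7 and 45.8.

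The remaining PCR genes did not pass the filter. Hoxa10 and Hoxa11, which pattern limb and uterus, had no detected probe on any array. The 2 probes of Hoxa10 had signals from 41.9 to 51.2 in the control and from 40.4 to 53.8 in 5-aza-dC, and the probe of Hoxa11 from 41.7 to 47.5 in the control and from 40.1 to 47.2 in 5-aza-dC. Hoxc9, which acts in thoracic motor neurons, was also undetected throughout, at 47.5 to 59.0 and 44.9 to 54.3. Hoxc12 was undetected as well, at 43.9 to 45.6 and 41.8 to 45.6. Hoxc13, a gene of hair and nail formation, was undetected in the control (40.8 to 56.4) and detected on 1 of 4 arrays in 5-aza-dC, where its signals were 51.2, 50.5, 50.6 and 62.2. At these signals a change of RNA below the detection limit of the array could not be seen, so no statement about the presence or absence of these transcripts follows. Of the 8 PCR genes, 2 could be tested, Vax2 and Hoxc10.

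**Figure D3:**
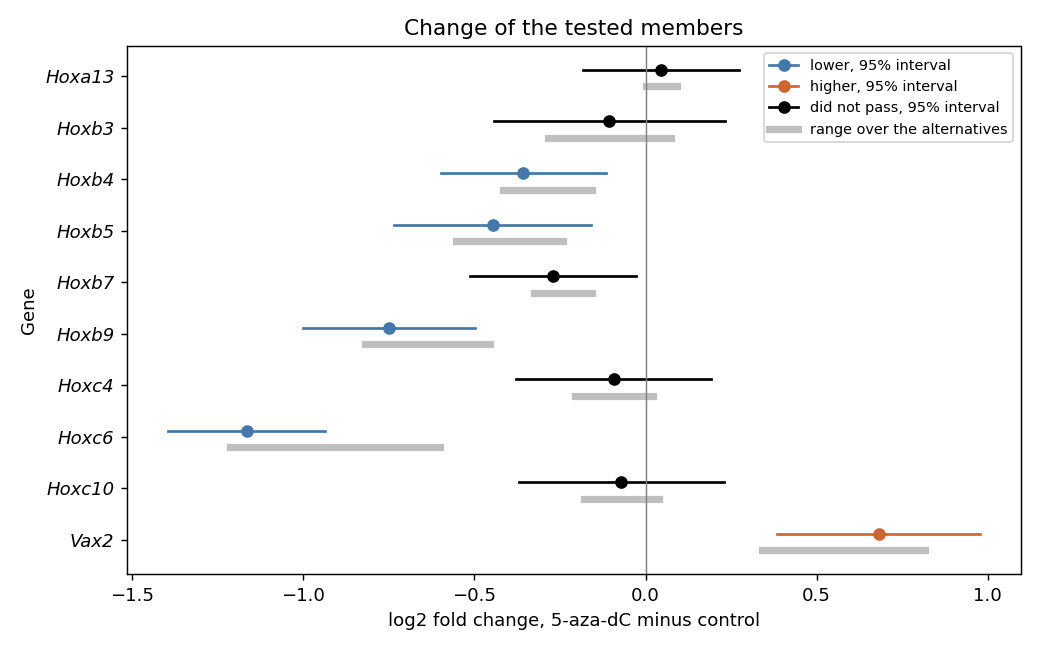
Log2 fold change (5-aza-dC minus control) of the 10 tested genes as points with 95% intervals, and as grey bars the range over the alternative settings. Hoxb4, Hoxb5, Hoxb9 and Hoxc6 lie below 0 and Vax2 above 0, while the grey bars of Hoxb3, Hoxc4 and Hoxc10 cross 0.

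The filter removed 30 of the 40 genes, so the fit was also made without it, over all 16590 genes. Of the 40 genes 2 were then called higher and 7 lower, beside 15% higher and 14.6% lower of all genes, with a median log2 fold change of -0.020 for the 40 genes and -0.01 for all. The calls added were Hoxa5, Hoxa7 and Hoxb2 lower and Hoxd8 higher. Hoxa5, which acts in lung and thoracic patterning, had a measured log2 fold change of -0.35 (adjusted p = 0.00505 in limma) and was detected on 1 of 8 arrays. Hoxa7 (-0.30, adjusted p = 0.00492) and Hoxd8 (0.17, adjusted p = 0.0389) were detected on none, and Hoxb2 (-0.23, adjusted p = 0.0332) on 1. Values at background have no reliable size. The Hoxb2 call was lost without background correction (adjusted p = 0.0978), on the deposited values (0.0611) and with any 1 replicate left out (0.0585 to 0.149). The Hoxd8 call was lost without background correction (adjusted p = 0.0505), with median scaling (0.0824) and after dropping control replicate 1 (0.0799), control replicate 2 (0.132) or the second 5-aza-dC replicate (0.0992). Hoxc9 lay just outside the threshold (-0.21, adjusted p = 0.0507 in limma) and passed with an offset of 50 (0.0469), with median scaling (0.0498), with the replicate block (0.0174) and without 5-aza-dC replicate 2 (0.00304).

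By cluster, the unfiltered medians were -0.03 for HoxA, -0.17 for HoxB, -0.04 for HoxC and 0.02 for HoxD. In HoxB 8 of 10 genes had a value below 0, in HoxA 8 of 10, in HoxC 5 of 9 and in HoxD 4 of 9. The median over all genes in this fit was -0.01. Of these genes, 1 in HoxA, 5 in HoxB, 3 in HoxC and 0 in HoxD had passed the filter. Most of these signs were thus read at background. The central genes had a median of -0.08, the anterior genes -0.02 and the posterior genes -0.01. No test was made over these lists.

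**Figure D4:**
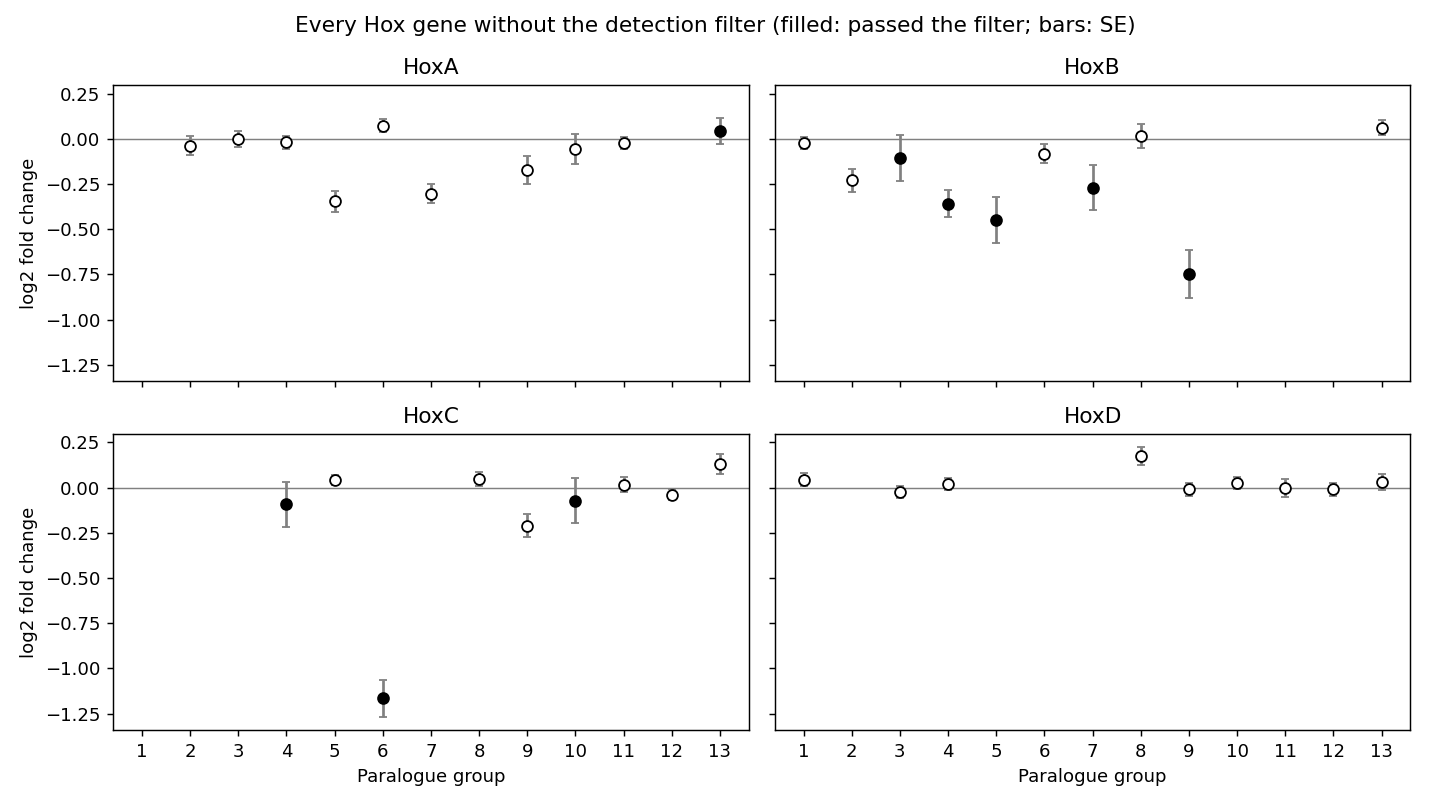
Log2 fold change (5-aza-dC minus control) with SE of every Hox gene in the fit without the detection filter, by paralogue group in each cluster, filled where the gene passed the filter. Hoxc6 reaches -1.17 and Hoxb9 -0.75, and the 9 HoxD genes lie close to 0, with Hoxd8 at 0.17.

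Genes that work with or on the Hox clusters were read from the filtered fit, in which 26.3% of all tested genes were higher and 25.7% lower, with a median of -0.02. The count of each list is to be read against these shares. Hox proteins bind DNA with cofactors of the TALE homeodomain class. Of 7 tested cofactor genes 4 were lower and 0 higher, with a median log2 fold change of -0.48. The 2 with the largest change were Pknox2 (-1.69 ± 0.15, adjusted p = 0.000434) and Meis2 (-1.38 ± 0.12, adjusted p = 0.000455, both limma), a partner of Hox proteins in the limb. For PRC2, 6 of 8 tested genes were higher and 0 lower, with a median of 0.65. Ezh2, its catalytic subunit, rose by 0.80 ± 0.12 on the log2 scale (adjusted p = 0.00252), and Phf19, an accessory subunit, by 0.79 ± 0.12 (adjusted p = 0.00257).

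Polycomb repressive complex 1, which ubiquitinates histone H2A and in some of its forms binds H3K27me3, gave 4 higher and 2 lower of 15 tested genes. Its largest changes were in Pcgf1 (-1.19 ± 0.16, adjusted p = 0.00197) and Phc2 (1.07 ± 0.12, adjusted p = 0.000930, both limma). Among Trithorax-type activators, H3K27 demethylases and Cdx factors, 1 of 9 was higher and 2 were lower. The demethylase gene Kdm6b fell by 1.24 ± 0.14 on the log2 scale (adjusted p = 0.00110), and Wdr5, a subunit of histone H3 lysine 4 methyltransferase complexes, rose by 0.91 ± 0.10 (adjusted p = 0.000907).

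Of 13 tested genes that flank the clusters 3 were higher and 4 lower, with a median of -0.05, which is close to the shares over all tested genes (26.3% and 25.7%). The largest changes were in 2 genes beside HoxC, Calcoco1 (-1.24 ± 0.11, adjusted p = 0.000519) and Cbx5 (0.96 ± 0.11, adjusted p = 0.00110, both limma), which encodes a heterochromatin protein. Transcription factors of limb and trunk position had 7 of 9 tested genes lower and 2 higher, with a median of -0.73. Of the higher genes, 1 was undetected on all control arrays and passed the filter only through 5-aza-dC. Shox2, a factor of proximal limb growth, fell by 1.88 ± 0.15 and Prrx1, a factor of limb mesenchyme, by 1.33 ± 0.13 on the log2 scale (adjusted p = 0.000349 and 0.000553 in limma). Among receptors and enzymes of retinoic acid, a signal that induces Hox genes, 7 of 10 were lower and 1 was higher, with a median of -0.47. Aldh1a3, which makes retinoic acid, was at least 3.01-fold higher (adjusted p = 9.18e-05 in limma), and Aldh1a1 at least 1.59-fold lower (adjusted p = 0.000378). Aldh1a3 was undetected on all control arrays, and 2 of the lower genes, Aldh1a1 among them, on all 5-aza-dC arrays. Each of these passed the filter only through its brighter group. Wnt10a, a further PCR target of the study, was lower (-0.88 ± 0.10, adjusted p = 0.00117).

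The labelled cell type was checked in the same arrays. The marker counts are to be read beside the 26.3% of all tested genes called higher and the 25.7% called lower. Of 7 tested fibroblast markers 4 were lower in 5-aza-dC, 1 was higher and 2 did not pass. Their summed level was 29041 to 34845 in the control replicates and 16696 to 19703 in the treated ones. Col1a1, Col1a2, Pdgfra and Pdgfrb were the lower ones, and all 7 were detected on all 8 arrays. Thy1 was the higher one (log2 fold change 0.42 ± 0.14, limma adjusted p = 0.0458). S100a4 (1.10 ± 0.47, adjusted p = 0.0997) and Vim (0.15 ± 0.23, adjusted p = 0.630, both limma) did not pass. Of 5 tested epithelial markers 4 were higher. Their summed level was 116 to 120 in the control and 1402 to 1463 after treatment. Krt8, Krt14, Krt18 and Cldn4 were undetected on all control arrays. They therefore passed the filter only through the treated group, and their control levels were background. For Cldn4, the dimmest detected level of each control array in place of its own turned the log2 difference to -0.12. Its change thus has no reliable size. The blood marker tested, 1 of 5 on the array, was lower, and the endothelial marker tested, 1 of 7, was higher. Neural markers gave 1 higher and 2 lower of 4, and skeletal muscle markers 2 higher of 3. The endothelial marker and the 2 higher muscle markers were undetected in the control, and the blood marker was undetected in 5-aza-dC. Each of them passed the filter only through its brighter group. The part of the marker shifts in the Hox values was not tested, and in bulk RNA fewer cells of a type and less RNA per cell cannot be told apart.

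Technical arrays of one replicate correlated at 0.997 to 0.998, arrays of different replicates of a group at 0.987 to 0.996 and arrays of different groups at 0.919 to 0.930, over kept probes. The replicates of a group differed by 0.12 log2 units in the control and 0.14 in 5-aza-dC, as a mean over the 10 tested genes. Over all tested genes the SD of the difference between replicates was 0.17 in the control and 0.32 in 5-aza-dC. The 5-aza-dC replicates were thus further apart, while the fit used a common variance for both groups. From 50% to 52.9% of probes were detected per array.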

How the data were processed

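RNA was measured on 8 Illumina bead arrays. The probe annotation is that of a RefSeq-content array, whereas the methods give its whole-genome relative. The deposited file holds a detection p-value for each probe beside its mean bead signal, an intensity from which no background was subtracted. Normalised intensity values were deposited by the authors after processing with lumi (version not given in the sources used here), and these served as an alternative.

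Background correction and quantile normalisation of the signals used neqc (offset 16) in limma 3.58.1 (R 4.3.3, version 1.17.8 of data.table), which gave the log2 values used here, and negative controls were reconstructed by neqc from the deposited detection p-value columns. A probe was kept when 2 or more of the 8 arrays had its detection p under 0.05, the brightest kept probe stood for a gene, and technical arrays were averaged (n = 2 per group). Of the probes, 23978 carried 1 symbol, 0 several, and 1719 were not listed. 5-aza-dC was compared with control by lmFit and eBayes with a variance trend, two-sided, with Benjamini-Hochberg adjustment over all 9502 tested genes at 0.05, and adjusted p means this value. A positive log2 fold change means a higher level in 5-aza-dC.

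The members and lists were chosen with earlier results of these data known. By rule, values are given for every member with a kept probe and for the PCR members, other members are given by counts, and from each list of Hox-related genes at most the 2 called genes with the largest change are named. Outside the rule, and chosen after their values were seen, are Hoxa5, Hoxa7, Hoxb2 and Hoxd8 in the unfiltered fit and the fibroblast and epithelial markers named in the check of the cell type. The fit was tested on simulated log2 values under 2 noise models. The first used each gene's own replicate SD and gave a share of false calls above the nominal 0.05. The second, with SDs drawn from the fitted variance prior, was added after that was seen, and its share was lower but also above 0.05. Adjusted p-values near the threshold should be read with this in mind. The number of arrays limits the precision. The alternatives covered background, normalisation, filter, probe choice, technical arrays, replicate block, variance trend, deposited values and left-out replicates.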

Additional observations from a re-analysis of the deposited data

How the results depend on the processing

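Hoxb9, Hoxc6 and Vax2 kept their direction and their call under all 16 alternatives tried, but the sizes of all 5 called members were over 1.5 times smaller with an offset of 50, without background correction and on the deposited values, as given with each gene. Without the detection filter 2 of the 40 genes were higher and 7 lower, with a median log2 fold change of -0.020, since 40 in place of 10 genes were tested. At a detection p under 0.01, 6 genes were detected in the control and 5 in 5-aza-dC. When 1 replicate was left out, the number of genes called over the array ran from 3244 (without control replicate 1) to 5906, against 4941, and the median of the tested members from -0.31 (without 5-aza-dC replicate 2) to -0.10. The log2 fold change ran from -0.18 to 0.039 for Hoxc10, from -0.29 to 0.074 for Hoxb3 and from -0.21 to 0.021 for Hoxc4, and these signs turned without control replicate 1 (Hoxc10) or 5-aza-dC replicate 1 (all 3). The calls of Hoxb4 and Hoxb5 were lost as given with their values. Scaling arrays to their medians let Hoxb7 pass (adjusted p = 0.0408), and both Hoxb7 and Hoxb3 passed without 5-aza-dC replicate 2 (adjusted p = 0.0303 and 0.0413). The cause was not tested.

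With the replicate number as a replicate block, 4385 genes were called, the members gave 1 higher and 4 lower, and no call among the 10 tested members changed, while in the unfiltered fit the block brought Hoxc9 past the threshold (adjusted p = 0.0174). Deviations of same-numbered replicates correlated at -0.63 over 9502 genes. Each group gives only 1 difference between replicates and genes are not independent, so this value cannot say whether the numbers pair the samples. A crossed replicate block, chosen after seeing the data, called 6171 genes, with 1 member higher and 5 lower. A slide block was not run, as the headers give no slide. Signals near background limit the size of every member's change.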
